A study of Homo sapiens with 8 samples.

Results

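The major histone gene cluster of the human genome lies on the short arm of chromosome 6, and the CTCF peaks called in it are described here. Peaks were taken from the list of control HT1080 cells and from the list of cells exposed to CBL0137, a curaxin, at 3 µM for 6 h, when their centre lay between 25.9 Mb and 28 Mb of chromosome 6 in hg19. This rule gave 36 of the 47470 control peaks and 21 of the 29558 peaks of CBL0137-treated cells. HT1080 is a human fibrosarcoma line, recorded in the labels as ras-positive, and control cells carried no treatment label. CTCF-bound DNA and input DNA were each sequenced in 2 biological replicates per condition, which makes 8 libraries. The authors called each list from both replicates of a condition together, so that a peak has 1 fold enrichment of ChIP over input per condition and no value per replicate. No spread between replicates could therefore be computed, the read depth behind a peak is unknown from the lists, and every difference between the conditions below is a comparison of pooled lists with no test. The first control peak inside the window, at 25942801, had a fold enrichment of 33.1, and the last before it, at 25890751, had 30.2. At the other edge, the last peak inside, at 27863301, had 44.7 and the first one after the window, at 28072451, had 42.9.

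CTCF is a zinc-finger protein that binds a long, oriented DNA motif and, by halting cohesin, sets the ends of many chromatin loops. Histone genes code for the core histones H2A, H2B, H3 and H4, around which DNA is wrapped, and for the linker histone H1, which binds between nucleosomes. Most of them are short, lack introns and are transcribed together during S phase, when new DNA must be packed. Curaxins intercalate into DNA and loosen its contacts with histones.

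The annotation placed 50 protein-coding histone genes and 8 histone pseudogenes in the window. The coding genes fell into 3 subclusters, taken as runs of genes with no gap above 200 kb. Subcluster 1, from H1-1 to H4C8 (26017260 to 26285866), held 29 genes, among them 5 of the 6 H1 genes. Subcluster 2, from H2BC11 to H2AC12 (27093676 to 27115341), held 5 genes of the H2A, H2B and H4 classes. Subcluster 3, from H2BC13 to H2BC17 (27775257 to 27861669), held 16 genes, with H1-5 as its linker histone gene. The stretch between subclusters 1 and 2 carries the butyrophilin genes, whose products modulate T cells, and that between subclusters 2 and 3 carries PRSS16, a thymic serine protease gene, and zinc-finger genes.

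The sequences under the peaks were searched for the CTCF core consensus of 12 bases on both strands, within 400 bp about each peak centre. The best matches below were chosen because they belong to the sites on which the description turns. Each is printed 5′ to 3′ in the direction of the consensus, from the GRCh37 reference, with the core in capitals and 9 flanking bases on each side in lower case. The first set lies at or beside histone genes.
Peak beside HIST1H4B, shared, chr6:26026664-26026693, plus strand, 1 mismatch: ctggcgctaCCGGCAGGGGGCggttaagga
Peak in H2BC11, shared, chr6:27095002-27095031, plus strand, 1 mismatch: ccattatcgCCACAAGATGGCgatagcgct
Peak after H2BC17, shared, chr6:27863450-27863479, minus strand, 1 mismatch: gcttttttgCCACAAGATGGCaggagaagg
Peak between H2BC14 and H4C11, lost, chr6:27787655-27787684, plus strand, 2 mismatches: tctcatcagCCTGGAGAGGGCaccagagca
The next set belongs to peaks of high control fold enrichment that both lists hold.
Peak upstream of H1-2, shared, chr6:26066296-26066325, plus strand, 2 mismatches: tgctttcagACACTAGATGACgctccaaat
Peak downstream of H2BC13, shared, chr6:27740389-27740418, plus strand, 1 mismatch: ccgcagtctCCACCAGGCGGCgcgccccag
Peak upstream of ABT1, shared, chr6:26596163-26596192, minus strand, 0 mismatches: agggcgcgaCCAGCAGGGGGCgccgtcccc
The last set belongs to the lost peaks of highest control fold enrichment.
Peak before subcluster 2, lost, chr6:27046840-27046869, plus strand, 1 mismatch: acaacactgCCACCATGTGGCaattactcc
Peak downstream of BTN3A1, lost, chr6:26420979-26421008, minus strand, 1 mismatch: gactttctgCCAGTAGGTGGTggggttgag
The cores in H2BC11 and after H2BC17 were the same in all 12 bases, on opposite strands and with different flanks, 19 of 30 bases being the same in all.

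Of the 36 control peaks in the window, 21 overlapped a peak of treated cells by at least 1 bp and were counted as shared, whereas 15 had no overlap of any length and were counted as lost. The lost share was 41.7% (Wilson 95% interval 27.1% to 57.8%, counting error only), beside 42.9% over the whole control list. The window as a whole thus lost about as large a share of its peaks as the list did. All 21 peaks of treated cells overlapped a control peak, so that none had arisen, beside 8.07% over the whole treated list. The windows of equal length on either side had no arisen peak among 22 and 2 treated peaks, and the rest of chromosome 6 had 6.00%. In the window just before, 14 of 36 control peaks were lost, and in the one just after, which had 8 control peaks, 6 were lost. The density of control peaks, 17.1 per Mb, was the same as in the window before and compared with 15.6 per Mb over chromosomes 1 to 22 and X.

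**Figure D1:**
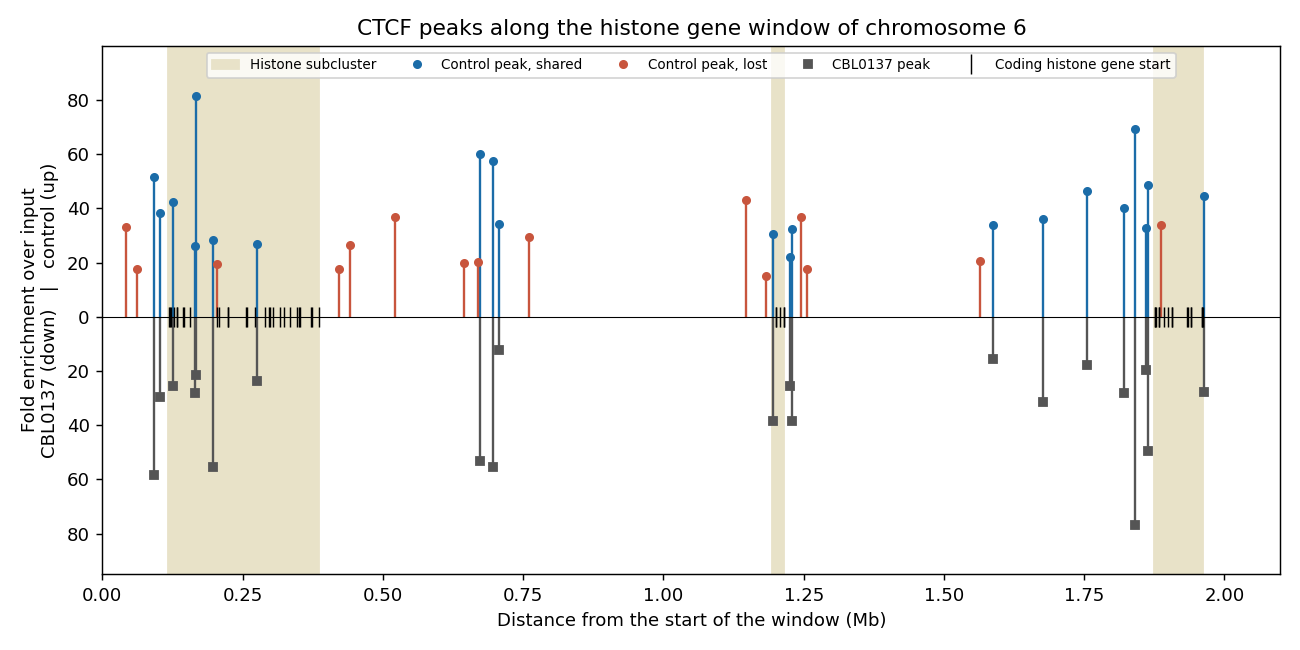
CTCF peaks by distance from the start of the window (x axis, Mb), with fold enrichment over input drawn upward for control cells and downward for CBL0137-treated cells (y axis). Shading marks the 3 histone subclusters and black ticks the starts of the 50 coding histone genes; of the 36 control peaks, the 15 lost ones (red) included a row of 5 after subcluster 1, and the 21 shared ones (blue) included a row of 7 before subcluster 3.

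Most CTCF peaks of the window lay outside the histone subclusters, 28 of 36, but so did most of its length. The subclusters covered 377 kb with 21.2 control peaks per Mb, and the remaining 1723 kb had 16.2 per Mb. Of all, 5 of the 36 control peaks were centred within 5 kb of the start of a coding histone gene. Of the 50 histone genes, 10 had a peak that close. They were 4 of 11 H4 genes, 3 of 12 H2B genes and 1 each of the 6 H1, 11 H2A and 10 H3 genes. The counts by class rest on the same 5 peaks, and the share of all coding genes with a peak that close is not given. The median distance from a histone gene start to the nearest control peak was 12.7 kb, with extremes of 0.340 kb for H4C3 and 71.6 kb for H3C7. The nearest control peak was a shared one for 33 of the 50 histone genes and a lost one for 17, but neighbouring genes have the same nearest peak, and these counts rest on 7 shared and 3 lost peaks.

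The peak closest to a histone gene start, chr6:26104401-26104600, lay on the end of H4C3, its centre in the annotated UTR and 0.340 kb from the start. It had a control fold enrichment of 19.7, in the weakest quartile of the control list, and it was lost. Its best consensus match had 3 mismatches, so that it had no match by the rule used here. H1-6, the testis-specific linker histone gene, had its start 3.86 kb from the same peak. The next closest, chr6:26026551-26026850, lay 0.780 kb from the start of HIST1H4B, just beyond the end of this short gene, with H4C1 on its other side. It was shared, with a fold enrichment of 42.3 in control cells and 25.5 in treated cells.

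The other peaks within 5 kb of a histone gene start had different fates as well. The peak chr6:27863301-27863600 lay 2.25 kb downstream of the start of H2BC17, the last histone gene of the window, and within 5 kb of H2AC17 and H3C12 too. It had fold enrichments of 44.7 and 27.6 in control and treated cells. The peak chr6:26175701-26176200 lay in an annotated intron of H2BC6, 3.66 kb from its start, with fold enrichments of 26.7 and 23.6. This peak narrowed from 500 bp to 250 bp, so that its overlap did not exceed 50% of the wider peak and the site counted as lost where that was required. The peak chr6:27787551-27787850 lay between H2BC14 and H4C11, 4.17 kb upstream of H4C11, had a control fold enrichment of 34.0 and was lost. In total, 3 of the 5 peaks near histone gene starts were shared and 2 were lost, a share near the 42.9% of the whole list. For a gene annotated with a longer transcript, such as H2BC6 or H3C12, the start is that of the longest annotated form. The record of H2BC6 runs from 26172287 to 26184883 on the plus strand. The distance of 3.66 kb, and the counts of near peaks and genes that include this peak, hold for that start only.

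Within the subclusters, 6 of 8 control peaks were shared and 2 were lost, the peak at H4C3 and the peak before H4C11. The Wilson 95% interval of the lost share, 7.15% to 59.1%, held the 42.9% of the whole list. Subcluster 1 held 6 of these peaks, of which 5 were shared. They included a pair 1.05 kb apart upstream of H1-2, a linker histone gene, at 8.23 kb and 9.63 kb from its start. The first of the pair, chr6:26064751-26065100, had fold enrichments of 26.1 in control and 28.1 in treated cells. The second, chr6:26066151-26066500, had the highest control fold enrichment of the window, 81.6, and 21.4 in treated cells. A further shared peak, chr6:26097551-26097850, lay in an untranslated exon of HFE, the gene of an iron-sensing membrane protein that sits among the histone genes. The rest of subcluster 1 had no control peak, in a gap of 146 kb from 26176201 to 26322350 that ran past the end of the subcluster. It held 13 coding histone genes, from H4C4 to H4C8. Of the gaps between neighbouring control peaks genome-wide, 9.35% were at least as long. Longer gaps of the window, 386 kb from 26660551 and 307 kb from 27156901, lay between subclusters and held no coding histone gene.

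Shared peaks lay at both ends of subcluster 2. The peak chr6:27094851-27095200, in an intron of the longer form of H2BC11, had fold enrichments of 30.6 in control and 38.5 in treated cells and a match on the plus strand. After the last gene of the subcluster, H2AC12, came chr6:27125751-27126000, with fold enrichments of 22 and 25.7 and a match on the minus strand, and chr6:27129701-27130100, with 32.6 and 38.5. The matches in H2BC11 and at 27125751 thus pointed toward each other, with 4 of the 5 genes and the start of H2BC11 itself between them. The control peaks farther out on either side were lost, at 27083051 with a fold enrichment of 14.9 and at 27145501 with 36.7.

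Between subclusters 1 and 2, 8 of 11 control peaks were lost (72.7%, Wilson 95% interval 43.4% to 90.3%), whereas between subclusters 2 and 3, 3 of 12 were lost (25%, 8.89% to 53.2%). Over the whole list 42.9% were lost, which lies inside the second interval and just below the first, and the difference between the segments was not tested. The median control fold enrichment was 29.6 in the former segment and 35.0 in the latter. The first 5 peaks after subcluster 1 were lost one after the other, from 26322351 in the pseudogene H3C9P, through 26341851 and 26420901 around the butyrophilin genes BTN3A2 and BTN3A1, to 26544201 in an intron of HMGN4, which codes for a nucleosome-binding protein, and 26569401. Their control fold enrichments were 17.8, 26.6, 36.9, 20.1 and 20.3. Of all control peaks, 8.16% lay in a run of at least 5 lost peaks, in 622 runs.

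Peaks of high fold enrichment followed at once. Only 3.25 kb separated the lost peak at 26569401 from the shared peak chr6:26572901-26573150, which had fold enrichments of 60.2 in control and 53.1 in treated cells. The next, chr6:26596001-26596350, 1.01 kb upstream of ABT1, a gene for a basal transcription activator, had 57.6 and 55.4 and held the single exact match to the consensus in the window. The peak downstream of ABT1, chr6:26607601-26607950, had 34.2 in control cells and 12.2, the lowest value among the treated peaks of the window, in treated cells.

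The longest run of shared peaks led up to subcluster 3. From 27486601 to 27763651, all 7 control peaks were shared, with control fold enrichments of 33.8, 36.2, 46.4, 40.1, 69.3, 32.9 and 48.6 in order along the chromosome. In treated cells the same sites had 15.7, 31.5, 17.6, 28.0, 77.0, 19.5 and 49.6. The strongest of them, chr6:27740251-27740550, lay 35.3 kb downstream of the start of H2BC13, the first gene of the subcluster, which is read from the minus strand. Runs of at least 7 shared peaks held 12.5% of all control peaks. Of the 496 pairs of best matches with at most 2 mismatches, that of the peaks at 27577051 and 27720051 was the most alike. These matches were the same in 24 of 30 bases, against 19 for the next pair and a median of 13. All pairs were aligned on the consensus.
Peak at 27577051, shared, chr6:27577240-27577269, minus strand, 1 mismatch: gaagctttgTCAGTAGAGGGCagtggagag
Peak at 27720051, shared, chr6:27720200-27720229, minus strand, 2 mismatches: taaattttgTCAATAGAGGGCgatggagag

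Both peaks within 1 kb of the start of another coding gene were lost, whereas the shared peak 1.01 kb upstream of ABT1 lay just beyond that limit. The peak chr6:25962051-25962150, 0.930 kb upstream of TRIM38, a ubiquitin ligase gene of innate immunity, had a control fold enrichment of 17.7. The peak chr6:26660451-26660550, 0.520 kb upstream of ZNF322, a zinc-finger gene, had 29.6. Both lost peaks were 100 bp wide, the smallest width in the window, and neither had a consensus match. Genome-wide, 28.0% of the control peaks within 1 kb of a coding gene start were lost. By quartile of control fold enrichment, 80.2% of all control peaks were lost in the quartile of the TRIM38 peak and 28.4% in that of the ZNF322 peak. With the peaks at HIST1H4B and H4C3, 4 of the 36 control peaks of the window lay that close to a coding gene start, or 11.1%, beside 6.76% of all control peaks.

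The lost peaks lay farther from histone genes than the shared ones, as a description of these 36 peaks. Their median distance to the nearest coding histone gene start was 55.9 kb, with a range of 0.340 kb to 375 kb, and that of the shared peaks was 15.0 kb, with a range of 0.780 kb to 322 kb. The ranges overlapped almost wholly. Fold enrichment also differed between the fates, and the part of distance in them was not tested.

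**Figure D2:**
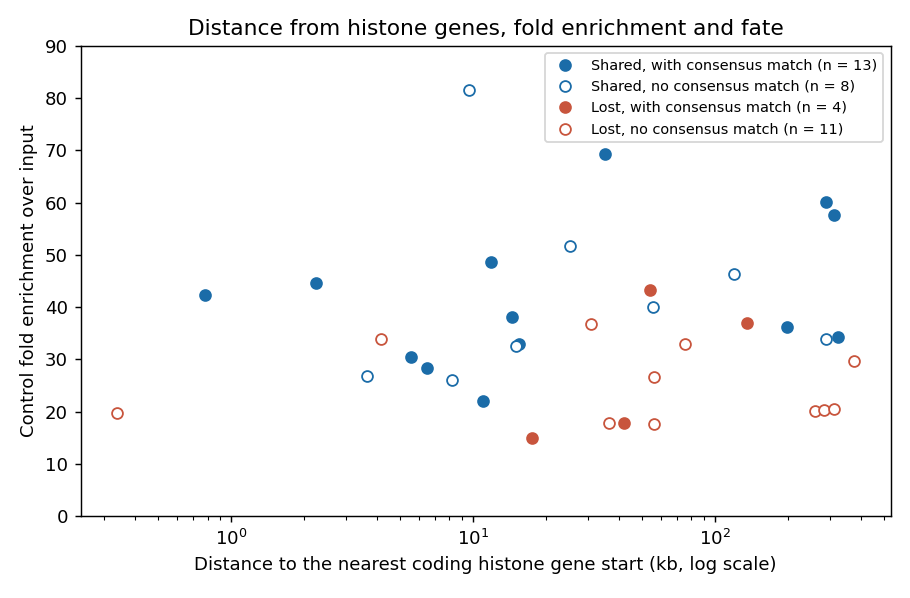
Control fold enrichment over input (y axis) against distance to the nearest coding histone gene start (x axis, kb, log scale) for the 36 control peaks, blue for shared and red for lost, filled where a match with 1 mismatch or none was present. Shared peaks had a median distance of 15.0 kb and lost peaks of 55.9 kb, and 13 of 21 shared against 4 of 15 lost peaks had a match.

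Fold enrichment in control cells differed between the fates as it did over the whole list. The lost peaks of the window had a median control fold enrichment of 20.6, from 14.9 to 43.2, and the shared ones of 38.2, from 22 to 81.6. The medians over the whole list were 20.6 and 34.9. When control peaks were divided at the quartiles of the whole list, 5 of 5 members in the weakest quartile were lost, where the background was 80.2%. In the next quartiles 4 of 8 were lost beside 51.2%, and 5 of 12 beside 28.4%, and in the strongest quartile 1 of 11 was lost beside 11.8%. The intervals of the members spanned the background share in each quartile.

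**Figure D3:**
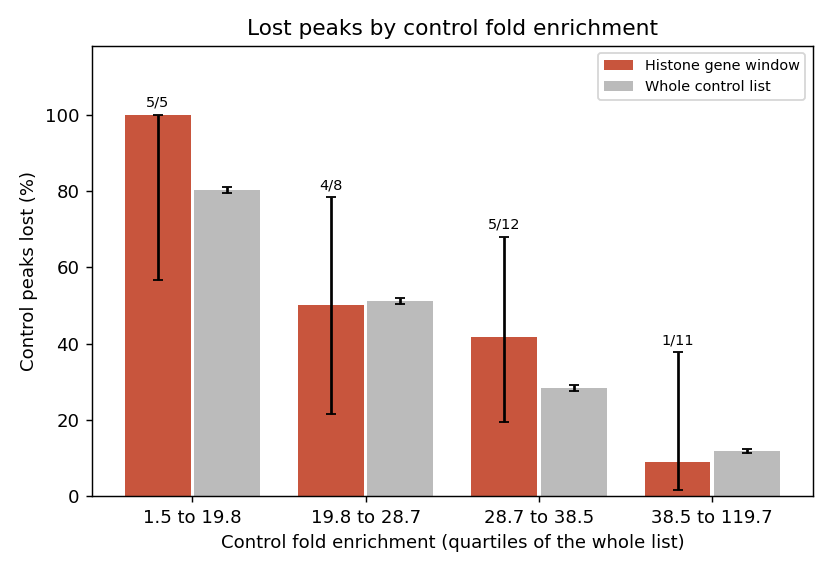
Percent of control peaks lost (y axis) by control fold enrichment, by quartiles of the whole control list (x axis), for the window (red, number lost over number of peaks above the bar) and for the whole list (grey), with Wilson 95% intervals as error bars. The lost share fell from 5 of 5 to 1 of 11 in the window and from 80.2% to 11.8% in the whole list.

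The 1 lost peak of the strongest quartile was chr6:27046751-27047000, intergenic and 53.7 kb from H2BC11, with a control fold enrichment of 43.2. It held a consensus match with 1 mismatch. The other lost peaks of highest fold enrichment were that at 26420901 with 36.9, that at 27145501, 30.8 kb after H2AC12, with 36.7, that at 27787551 in subcluster 3 with 34.0, and that at 25942801, 12 kb upstream of SLC17A2, a gene of the phosphate transporter family, with 33.1. The 5 strongest control peaks of the window, from 81.6 down to 51.7, were all shared. The last of these, chr6:25992701-25993150, lay in an exon of LINC02980 ahead of subcluster 1, and its treated fold enrichment was 58.4. No treated peak was called at the lost sites, but the lists do not tell how far below the calling limit the signal was.

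Counting a match where at most 1 of the 12 bases differed, 17 of the 36 control peaks had one (47.2%, Wilson 95% interval 32.0% to 63.0%), beside 49.0% of all control peaks. The 400 bp searched reach beyond narrow peaks. For the lost peak at 27156801 the match lay outside the peak, and for that at 27083051 it ran past the end. For the shared peak at 27759901 the match lay inside the control peak but outside the treated peak that overlapped it. In windows 10 kb away from the peaks, 2.81% of all and none of the 36 had a match. A match was found at 13 of 21 shared peaks and at 4 of 15 lost peaks. Over the whole list the shares were 62.2% and 31.5%. Counted the other way, 4 of 17 members with a match and 11 of 19 without one were lost, where the background was 27.6% and 57.6%. All 21 shared peaks had a best match with at most 2 mismatches, whereas 4 of the 15 lost peaks, at 26104401, 26544201, 26569401 and 27145501, had none. At this looser limit 32 of the 36 control peaks had a match, beside 83.6% of all control peaks. The shares of shared and of lost peaks over the whole list at this limit are not given. Windows 10 kb away were counted only for at most 1 mismatch, so its rate in them is unknown. The best match lay within 30 bp of the peak centre in 18 of 21 shared and 9 of 15 lost peaks, and the whole-list shares are not given for this either. Of the 17 matches, 7 were on the plus strand and 10 on the minus strand. Failing to find these letters in a window says nothing of whether CTCF was bound there.

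The GC content over 400 bp gave no such difference, with medians of 45.25% for the shared and 46.0% for the lost peaks of the window. Over the whole list the shared peaks had the higher median, 48.5% against 43.25%. The lost peaks were narrower in control cells, with a median width of 250 bp against 350 bp. Over the whole list these medians were 200 bp and 350 bp. At 13 of the 21 shared sites the treated peak was narrower than the control peak, beside 62.4% of shared peaks genome-wide, at 5 it had the same width and at 3 it was wider. The widest control peak of the window, chr6:27759901-27760450, of 550 bp and 15.5 kb downstream of the start of H2BC13, overlapped chr6:27760201-27760400, which at 200 bp was among the 3 narrowest treated peaks of the window.

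Fold enrichments of the lists rest on different inputs and were not divided by each other. Instead, each shared peak was ranked among all 27107 shared control peaks of the genome by its control value and again by its treated value, as a percentile. In the window, 11 of 21 shared peaks had the lower rank in treated cells, beside 48.8% genome-wide, and the median change was -1.33 points. The single changes went both ways, from -68.7 to 63.6 points. The spread of such changes over all shared peaks of the genome is not given, and no account was taken of the starting rank. It is therefore unknown whether changes of this size are unusual. The largest fall was at the peak of 81.6-fold enrichment upstream of H1-2, from percentile 99.7 to 31.0. The largest rise was 31 kb away at the peak in HFE, from percentile 28.8 to 92.4, with fold enrichments of 28.3 in control and 55.5 in treated cells. Both lie in subcluster 1, where 5 shared peaks gave 2 falls and 3 rises. The peak upstream of H1-2 had an FDR of 3.87e-07 in control cells despite its fold, against 1.99e-11 for its weaker neighbour 1.05 kb away, and the lists do not give the input signal from which the folds were made.

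Ranks rose at each of the 3 shared peaks around subcluster 2, by 34.0 points in H2BC11 and by 28.9 and 27.5 points at the peaks after H2AC12. At the peak beside HIST1H4B the rank fell by 30.3 points, and at the peak after H2BC17 it fell by 30.6 points. In the run before subcluster 3 the strongest peak stayed at the top, at percentiles 98.6 and 99.3, whereas the peak at 27655201 fell by 59.2 points. The peaks before ABT1 ranked high in both lists, at percentiles 95.3 and 90.4 for the peak at 26572901 and at 93.7 and 92.4 for that at 26596001, and the peak after ABT1 fell by 39.7 points. With 1 value per condition it cannot be told how much of these changes is spread between replicates.

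**Figure D4:**
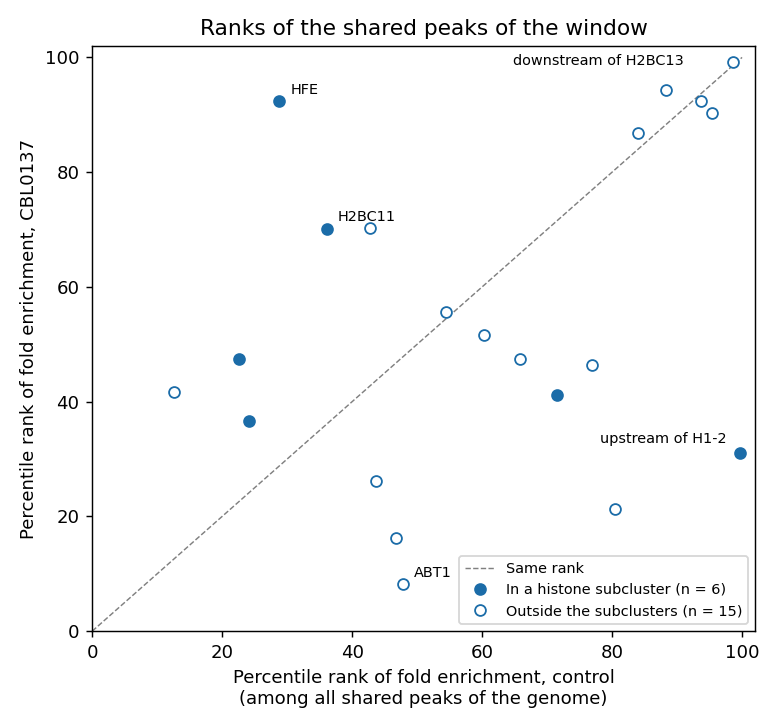
Percentile rank of fold enrichment among all shared peaks of the genome in control cells (x axis) and in CBL0137-treated cells (y axis) for the 21 shared peaks of the window, filled where the peak lay in a histone subcluster. Points below the dashed line, 11 of 21, ranked lower in treated cells, with the peak upstream of H1-2 farthest below it and the peak in HFE farthest above.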

How the data were processed

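CTCF ChIP and input libraries of control and CBL0137-treated HT1080 cells were grouped by their labels. The authors mapped reads to hg19 with Bowtie2 2.2.3, kept unique reads without duplicates (SAMtools 1.5) and called peaks with PePr on both replicates of a condition, ChIP against input. The authors deposited per peak a fold enrichment (a ratio), an FDR (an adjusted p-value), a raw p-value and a score, which is the fold rescaled; the last pair was not used. The lists have no header and were read in broadPeak order. The lists of differential sites hold the authors' own comparison of the conditions (sites, folds, p-values) and were not used. Because reads without molecular identifiers are not independent molecules and peaks are not replicates, the Wilson intervals cover counting error only.

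Here, members were selected by centre, and fates by any overlap. Genes came from GENCODE v44lift37 on GRCh37, which has the coordinates of hg19, without genes of type TEC. Gene starts are those of gene records. The 28 peaks of each list outside chromosomes 1 to 22 and X entered no measure of sequence. The study's own rule, by which the intersection must exceed 50% of the wider peak, was an alternative. Sites named are the peaks within 5 kb of a coding histone gene start or 1 kb of another coding gene start, and the 5 highest among all and among lost control peaks; the peaks of the runs and of the largest rank changes, those flanking subcluster 2, the close pair, the widest peak and the similar sequences were named after their values were seen. Members and gene lists were chosen with earlier results of these data known. The work was done in Python 3.11.15 with scipy 1.17.1 for intervals, pandas 2.3.3, numpy 2.4.6 and, for plots, matplotlib 3.10.9, and the overlap and consensus routines were tested on simulated data.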

Additional observations from a re-analysis of the deposited data

How the results depend on the processing

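No paired analysis was possible because each list combines the replicates of a condition, and for the same reason no replicate was left out. The lost share of 41.7% was 47.2% (50.7% over the whole list) where the overlap had to exceed 50% of the wider peak, which moved the peaks at 26175701 and 27759901 to lost and changed no other fate. It was 25.9% when the control list was cut to as many of its strongest peaks as the treated list holds (24.6% over the whole list then). A shift of the treated list by 10 kb gave 100% (99.0% over the whole list). It stayed between 40.0% and 41.9% with an overlap above 25% of the wider peak, centres at most 200 bp apart, an FDR of at most 1e-05 or a fold of at least 10 in both lists, or the window drawn from the first to the last histone gene. With the FDR limit on the control list alone, a setting chosen after seeing the data, it was 33.3%, above the 29.3% of the whole list, whereas under any overlap the window lay below the list. The number of arisen peaks, 0, was 2 under the rule of 50% and 1 at an FDR of at most 1e-05 in both lists. The share arisen over the whole list under these settings is not given. The number of peaks near a histone gene start, 5, was 2 at 2 kb and 9 at 10 kb, with 1 and 2 of them lost, and 6 with pseudogenes included. A consensus match was found at 1 control peak with no mismatch (13.9% of the whole list), at 32 with at most 2 (83.6%), and at 16 within 200 bp (47.4%). Ranked among all peaks of each list, 14 of 21 shared peaks ranked lower in treated cells. In that ranking the lost peaks, of lower control fold than the shared ones, enter the control list only. Shared peaks of the whole genome thus start from higher control ranks, and their share with a lower treated rank is not given. The count is therefore no measure of a fall at this window. Few peaks, pooled replicates and an unknown depth per peak limit all of these values.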
